A study of Mus musculus with 3 samples.

Results

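The genes described here are 6 transcription factors of the somite and of its skeletal part, the sclerotome: Pax1, Pax9, Nkx3-2, Uncx, Meox1 and Meox2. They were chosen by name, and each symbol matched 1 row among the 32285 genes listed in the deposited files. Their levels were read in 3 cryosections of mouse embryonic axial skeleton, 1 section per stage from embryonic day E11.5 over E12.5 to E13.5, profiled with 10x Genomics Visium. In this assay a 10 µm section lies on barcoded spots, each 55 µm across, that capture its RNA, which is counted as unique molecular identifiers (UMIs, 1 per captured RNA molecule). A spot is a small region that can hold several cells of different types. With 1 section per stage, no stage has a replicate, and the sources used here give no strain, genotype or treatment. Values in groups of 3 are in the order of the stages. Their position relative to cartilage, notochord and tendon was read from 3 other genes: Col2a1, the main fibrillar collagen of cartilage, T (Brachyury), a transcription factor of the notochord, and Scx (Scleraxis), a transcription factor of tendon and ligament precursors.

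Somites are blocks of mesoderm that form in sequence on either side of the neural tube and notochord. Sonic hedgehog from the notochord and floor plate induces the ventral part of each somite to become sclerotome, whose cells build the vertebrae, the ribs and the intervertebral discs. Pax1 and Pax9 are closely related paired-box factors of the sclerotome that act together in the vertebral bodies and discs, and Nkx3-2 (Bapx1) is a homeobox factor activated downstream of them in cells that go on to make cartilage. Uncx is a homeobox factor of the caudal part of each somite, required for pedicles and proximal ribs, and is also expressed in neurons. Meox1 and Meox2 are homeobox factors of the whole somite and its derivatives, with joint roles in the axial skeleton and in muscle.

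Spots with at least 1000 UMIs were used, 1561, 1014 and 1360 in the 3 sections, and their median depth was 27048, 24385.5 and 20943.5 UMIs. The sections shared 434 to 704 spot barcodes by pairs. The tissue label gives bone. Cartilage markers were counted in each section, and so were markers of neurons, heart, liver and endothelium, so the spots are not skeleton alone. Globin made up 5.44%, 1.40% and 0.780% of UMIs. The part of these differences in the results between sections was not tested.

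In the RefSeq annotation of GRCm38.p6 (the mm10 build), Pax1 (ENSMUSG00000037034) lies at chr2:147361930-147375049, Pax9 (ENSMUSG00000001497) at chr12:56691693-56712824 and Nkx3-2 (ENSMUSG00000049691) at chr5:41761483-41764220. Uncx (ENSMUSG00000029546) lies at chr5:139543865-139548179, Meox1 (ENSMUSG00000001493) at chr11:101877510-101894354 and Meox2 (ENSMUSG00000036144) at chr12:37108540-37179534. The lncRNA AI646519 overlaps Pax1 and was itself counted, with 240, 813 and 662 UMIs in the 3 sections. Slc25a21, a mitochondrial carrier gene, overlaps the end of Pax9 and had 86, 18 and 17 UMIs. The sources used here do not say how reads in such overlaps were assigned, so the Pax1 and AI646519 counts are uncertain where the genes overlap.

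The RefSeq promoter table of GRCm38.p6 holds 5 of the 6 genes, all but Meox1. The 250 bases before the listed start are shown for the 3 genes that were higher in spots rich in Col2a1, Pax1 (chr2:147364744-147364993, + strand), Pax9 (chr12:56695221-56695470, + strand) and Uncx (chr5:139543648-139543897, + strand), with the homeodomain core TAATTA in capitals. The windows of Pax1 and Pax9 lie inside the annotated span of the gene, and the window of Uncx ends inside that of Uncx.
Pax1: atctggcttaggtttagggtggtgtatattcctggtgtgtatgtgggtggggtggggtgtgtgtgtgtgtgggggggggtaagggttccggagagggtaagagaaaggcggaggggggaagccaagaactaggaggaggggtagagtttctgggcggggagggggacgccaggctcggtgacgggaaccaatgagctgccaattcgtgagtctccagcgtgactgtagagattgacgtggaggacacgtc
Pax9: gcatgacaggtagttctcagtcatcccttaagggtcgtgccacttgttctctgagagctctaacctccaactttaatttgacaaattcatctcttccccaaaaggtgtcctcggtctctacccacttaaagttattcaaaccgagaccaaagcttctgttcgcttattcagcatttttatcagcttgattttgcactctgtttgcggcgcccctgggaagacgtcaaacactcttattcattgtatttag
Uncx: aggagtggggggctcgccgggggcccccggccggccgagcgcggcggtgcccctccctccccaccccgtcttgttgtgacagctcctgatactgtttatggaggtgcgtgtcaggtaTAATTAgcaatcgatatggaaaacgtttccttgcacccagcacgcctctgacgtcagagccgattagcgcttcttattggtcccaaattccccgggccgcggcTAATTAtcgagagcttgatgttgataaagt
TAATTA, which reads the same on both strands, stood 133 and 30 bases before the listed start of Uncx and in none of the other 4 windows. The site at 30 bases lies inside the annotated span of Uncx. TAATTA occurred in 4.84% of the 32851 promoter windows of the same length. The Gli site GACCACCCA, searched on both strands, was in none of the 5 windows and in 0.225% of all. GC content was 58.8% for Pax1, 43.6% for Pax9 and 58.4% for Uncx. A match describes these letters only.

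Across the sections, Pax1, Meox1 and Meox2 were higher at the later stages, Pax9 peaked at E12.5, and Uncx was lowest at E13.5. Levels are UMIs per 1000000 UMIs of the section (CPM), with exact Poisson 95% intervals that cover counting error only. They show no spread between embryos. In such sums, fewer cells of a type and less RNA per cell cannot be told apart. A ratio of at least 2 was reached by 6.47% of 14890 genes upward and 3.40% downward between E11.5 and E12.5, by 10.5% and 8.06% between E12.5 and E13.5, and by 14.6% and 7.96% between E11.5 and E13.5.

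Pax1 stood at 31.1 CPM (29.5 to 32.8), 147 CPM (142 to 151) and 130 CPM (126 to 135). Its level was 4.72 times higher at E12.5 than at E11.5 (interval 4.43 to 5.02), and the last section was close to the second. Pax9, its relative, stood at 11.9, 28.8 and 13.5 CPM. It was 2.42 times higher at E12.5 than at E11.5 (2.16 to 2.71), while its E13.5 level was 1.14 times that of E11.5 (0.995 to 1.30), an interval that includes 1. The number of Pax1 UMIs per Pax9 UMI was 2.61 (2.36 to 2.89), 5.10 (4.71 to 5.53) and 9.64 (8.68 to 10.7), so the balance of these 2 genes differed between the sections by more than counting error.

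Uncx stood at 36.0 CPM (34.3 to 37.8), 46.8 CPM (44.1 to 49.5) and 10.9 CPM (9.68 to 12.1). Its E13.5 level was 4.31-fold lower than at E12.5 (3.80 to 4.90), and of the 5 well detected members it alone was below its E11.5 level in the last section. The share of spots with an Uncx UMI was 29.1%, 38.9% and 14.8%.

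Meox1 stood at 16.6 CPM (15.4 to 17.9), 45.2 CPM (42.7 to 47.9) and 61.4 CPM (58.5 to 64.3). Meox2 stood at 5.79 CPM (5.11 to 6.55), 20.2 CPM (18.5 to 22.0) and 47.2 CPM (44.7 to 49.7). Both were ordered by stage with separate intervals. The E13.5 to E11.5 ratio was 3.69 for Meox1 (3.39 to 4.03) and 8.14 for Meox2 (7.12 to 9.34), the largest ratio among the members. Meox1 UMIs per Meox2 UMI numbered 2.87 (2.48 to 3.32), 2.24 (2.02 to 2.49) and 1.30 (1.21 to 1.40).

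Nkx3-2 was close to the limit of detection. It had 2, 3 and 4 UMIs, each in a different spot, which is 9 of 3935 spots. The shares of spots, 0.128%, 0.296% and 0.294%, had overlapping exact binomial intervals, and no order of the stages can be read from them. Of these 9 spots, 8 held at least 10 Pax1 UMIs and 1 held none. Spots with at least 10 Pax1 UMIs made up 2.05%, 11.1% and 7.87% of the sections. The Pax1 minimum was chosen after the values were seen, and Nkx3-2 had too few UMIs for any test below. It had 0 UMIs in the neuron and heart spots of each section, defined below.

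**Figure D1:**
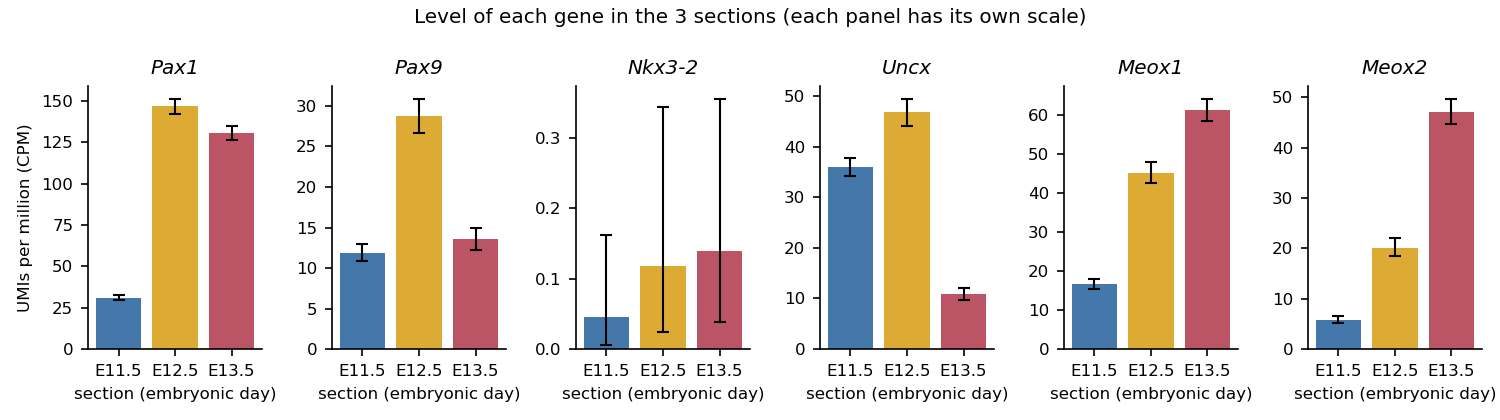
Level of each gene in CPM (vertical axis, from 0, scaled per panel) by section (horizontal axis), with bars as section values and lines as exact Poisson 95% intervals. Meox1 and Meox2 are highest at E13.5, Pax1, Pax9 and Uncx at E12.5, and Nkx3-2 stays under 0.36 CPM even at the upper end of its intervals.

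To place the genes relative to cartilage, notochord and tendon, the spots of each section were put in 5 classes by Col2a1, T and Scx alone. T spots were the top 3% by T with at least 2 T UMIs (22, 30 and 33 spots). Col2a1 spots were in the top 10% by Col2a1 (102, 72 and 121 spots) and Scx spots in the top 10% by Scx (105, 94 and 116 spots). Spots high in both formed a class of their own (42, 7 and 4 spots), and the other spots numbered 1290, 811 and 1086. At E13.5 the T and Col2a1 spots were shallow, at 6249 and 5025 UMIs by median, against 21101.5 in Scx spots and 22761 in other spots. Class sums of the 3 sections entered edgeR's quasi-likelihood test with the section as block, over 11769 genes. The comparisons with other spots share the sums of those spots.

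Pax1 and Pax9 were high in Col2a1 spots, and in each section Pax1 was higher there than in other spots by more than counting error. Pax1 stood at 222, 605 and 514 CPM in Col2a1 spots and at 11.4, 101 and 109 CPM in other spots. The values of the classes did not overlap. The fitted difference was 7.42-fold (log2 fold change 2.89, SE 0.38, edgeR adjusted p = 0.000119), with section ratios of 19.4, 6.0 and 4.70. The Col2a1 spots held 37.7%, 23.4% and 11.9% of the Pax1 UMIs and 5.29%, 5.67% and 3.03% of all UMIs. Other spots held 31.3%, 57.1% and 73.3% of the Pax1 UMIs and 85.0%, 83.0% and 87.4% of all UMIs. The lncRNA AI646519 was also higher in Col2a1 spots, at 33.2, 101 and 63.1 CPM against 2.84, 24.9 and 20.1 CPM in other spots. At E12.5 it was highest in T spots, at 122 CPM. Its interval there overlapped that of spots high in both Col2a1 and Scx (111 CPM), the class where Pax1 was highest.

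Pax9 stood at 53.7, 105 and 37.9 CPM in Col2a1 spots and at 8.17, 22.5 and 12.1 CPM in other spots, again without overlap. It was 4.56-fold higher (log2 fold change 2.19, SE 0.24, edgeR adjusted p = 1.99e-05), and its section ratios were 6.57, 4.67 and 3.13. Against Scx spots, Pax1 was 5.08-fold higher in Col2a1 spots (edgeR adjusted p = 0.00125) and Pax9 3.40-fold higher (edgeR adjusted p = 0.000605).

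Uncx was higher in Col2a1 spots in each section, by less. It stood at 61.8, 102 and 27.5 CPM in Col2a1 spots against 35.6, 39.3 and 9.51 CPM in other spots, and the values of the 2 classes overlapped across sections. The fitted difference was 2.12-fold (log2 fold change 1.08, SE 0.34, edgeR adjusted p = 0.0417). This call was lost with the DESeq2 test (adjusted p = 0.147), with DESeq2 size factors in edgeR (adjusted p = 0.0511) and without the E12.5 or the E13.5 section (edgeR adjusted p = 0.272 and 0.120).

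Of the 5 members tested, 3 were called higher in Col2a1 spots and 0 lower, where 5.20% of all genes were called higher and 8.60% lower (13.8% in all). Meox1 had a log2 fold change of -0.48 (SE 0.30, edgeR adjusted p = 0.325) and Meox2 of 0.53 (SE 0.33, edgeR adjusted p = 0.317), and neither passed. Without the section as block, edgeR called 0 members (2 of 5 at an unadjusted p under 0.05, Pax1 and Pax9). Markers of other cell types moved with this class: 10 of 10 cartilage genes were higher, and 5 of 5 neuron, 6 of 6 skeletal muscle, 5 of 5 heart and 5 of 5 endothelial markers were lower. Summed neuron markers ranged from 87.2 to 535 CPM in Col2a1 spots and from 300.4 to 1367 CPM in other spots. Summed heart markers ranged from 18.0 to 483 CPM and from 139 to 1983 CPM. No neuron marker was at 0 in Col2a1 spots at E13.5, and the part of these tissues in the result was not tested.

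Meox1 and Meox2 were higher in Scx spots than in other spots in each section. Meox1 stood at 86.1, 136 and 168 CPM in Scx spots and at 10.5, 39.0 and 52.3 CPM in other spots, without overlap. It was 4.26-fold higher (log2 fold change 2.09, SE 0.24, edgeR adjusted p = 9.12e-05), with section ratios of 8.20, 3.50 and 3.21. It was also the member with the clearest contrast between Scx and Col2a1 spots, at 16.6, 16.6 and 34.4 CPM in the latter, a 5.92-fold difference (log2 fold change -2.57, SE 0.29, edgeR adjusted p = 4.33e-05).

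Meox2 stood at 12.0, 35.8 and 103 CPM in Scx spots and at 4.72, 17.7 and 42.7 CPM in other spots. Its section ratios of 2.53, 2.02 and 2.42 lay close together, although the values of the 2 classes overlapped across stages. The fitted difference was 2.33-fold (log2 fold change 1.22, SE 0.29, edgeR adjusted p = 0.0218). The call was lost with the DESeq2 test (adjusted p = 0.194) and without the E11.5 or the E12.5 section (edgeR adjusted p = 0.115 and 0.0917). In Col2a1 spots Meox2 stood at 10.2, 38.8 and 27.5 CPM, so its level was close to that of Scx spots at E11.5 and E12.5 and lower at E13.5. Between Col2a1 and Scx spots Meox2 had a log2 fold change of -0.68 (SE 0.34, edgeR adjusted p = 0.344) and did not pass.

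Of the 5 members, 2 were called higher in Scx spots and 0 lower, where 0.561% of all genes were called higher and 3.17% lower (3.73% in all). Pax1 had a log2 fold change of 0.55 (SE 0.37, edgeR adjusted p = 0.655), Pax9 of 0.42 (SE 0.26, edgeR adjusted p = 0.575) and Uncx of 0.13 (SE 0.35, edgeR adjusted p = 0.960). Uncx split by stage, with 11.3 CPM in Scx spots against 35.6 CPM in other spots at E11.5, but 72.0 against 39.3 CPM at E12.5 and 19.4 against 9.51 CPM at E13.5. Muscle markers moved with the Scx class: Myh3 and Myod1, 2 of 6, were higher. Summed muscle markers stood at 616, 2462 and 4425 CPM in Scx spots and at 638, 849 and 3830 CPM in other spots. Of 5 neuron markers 5 were lower, and of 4 tendon markers tested 2 were higher, Tnmd and Thbs4. Summed tendon markers stood at 14.7, 119 and 871 CPM in Scx spots. In other spots they stood at 20.4, 52.6 and 284 CPM, so at E11.5 the Scx spots were not raised in them. The tendon marker Fmod was called higher in Col2a1 and in T spots, not in Scx spots. Pitx1, from the jaw and face list, was called higher in Scx spots. The part of muscle in the Meox1 and Meox2 results was not tested. Without the section as block, edgeR called 0 members (1 of 5 at an unadjusted p under 0.05, Meox1).

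Between Col2a1 and Scx spots 3 members were called, Pax1 and Pax9 higher in Col2a1 spots and Meox1 lower, where 2.21% of all genes were called higher and 2.53% lower (4.74% in all). Uncx was higher in Col2a1 spots in each section, with a log2 fold change of 0.95 (SE 0.38, edgeR adjusted p = 0.205), and did not pass.

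**Figure D2:**
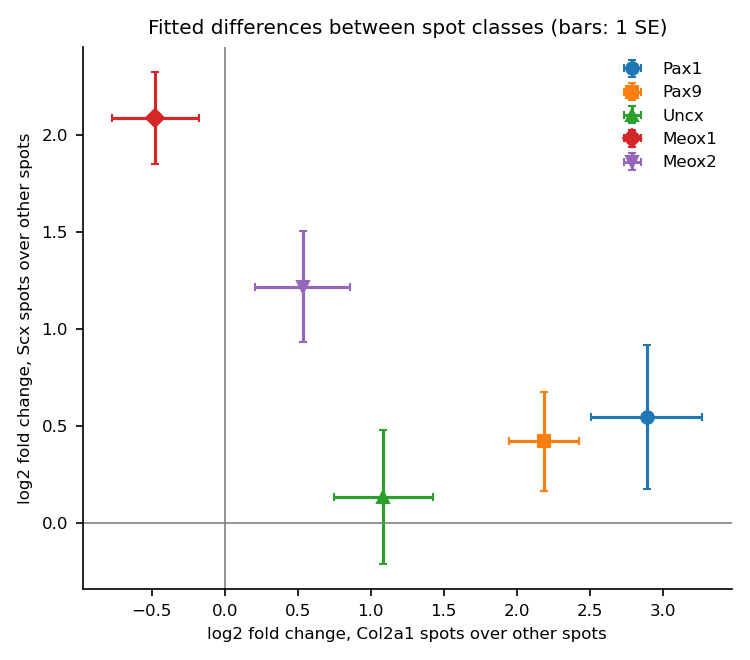
Fitted log2 fold change of 5 genes in Col2a1 spots over other spots (horizontal axis) and in Scx spots over other spots (vertical axis), with bars of 1 SE and grey lines at 0. Pax1 and Pax9 lie far to the right near the line of no difference in Scx spots, Meox1 lies highest, and the 2 comparisons share the other spots.

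T spots mark the notochord: Shh, Krt8, Krt19 and Car3, 4 of 5 notochord markers tested, were higher there. They also held cartilage RNA, since 10 of 10 cartilage genes were higher and 13 of 22, 23 of 30 and 11 of 33 T spots were in the top 10% by Col2a1 as well. Of other tissues' markers, 6 of 6 for skeletal muscle, 4 of 5 for neurons and 3 of 5 for heart were lower in T spots. Summed, they ranged from 63.1 to 734 CPM in T spots and 638 to 3830 CPM in other spots for muscle, from 83.5 to 735 and 300.4 to 1367 CPM for neurons, and from 20.0 to 545 and 139 to 1983 CPM for heart. Of 4 neural progenitor markers tested, 0 passed in T spots in either direction. Summed over all 5 on that list, they stood at 642, 223 and 422 CPM in T spots. In other spots they stood at 676, 689 and 196 CPM. At E13.5 Fabp7 alone stood at 409 CPM in T spots and 43.6 CPM in other spots. Myog, Myod1 and Myh3 were at 0 in T spots at E11.5, Myh6 and Nppa at E12.5 and Elavl4 at E13.5, and the part of these tissues in the T results was not tested. Pax1 stood at 154, 621 and 255 CPM in T spots, above the 11.4, 101 and 109 CPM of other spots without overlap. It was 5.63-fold higher (log2 fold change 2.49, SE 0.40, edgeR adjusted p = 0.00132). Set beside Col2a1 spots, the ratio of T to Col2a1 spots was 0.694 (0.539 to 0.881), 1.03 (0.911 to 1.16) and 0.496 (0.370 to 0.653), given as a description.

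Pax9 stood at 19.7, 66.1 and 8.79 CPM in T spots, the last from 2 UMIs. Its log2 fold change over other spots was 1.22 (SE 0.33, edgeR adjusted p = 0.0542), just short of the threshold. It passed in spots with at least 5000 UMIs (edgeR adjusted p = 0.00795) and without the E13.5 section (edgeR adjusted p = 0.0172). Meox1 had a log2 fold change of -1.34 (SE 0.49, edgeR adjusted p = 0.160), Meox2 of -1.08 (SE 0.59, edgeR adjusted p = 0.397) and Uncx of -0.36 (SE 0.51, edgeR adjusted p = 0.809). Uncx had 0 UMIs in the E13.5 T spots, which allows up to 13.2 CPM at 3 UMIs, above the 9.51 CPM of other spots, so a difference was not detectable at this depth. In all, 1 of 5 members was called higher and 0 lower, where 2.02% of all genes were called higher and 1.31% lower (3.33% in all). Without the section as block, edgeR called 0 members (3 of 5 at an unadjusted p under 0.05: Meox1, Pax1 and Pax9).

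In the few spots high in both Col2a1 and Scx, Pax1 stood at 321, 1011 and 624 CPM. This was above its Col2a1 spots by more than counting error at E11.5 and E12.5. The E13.5 value came from 25 UMIs in 4 spots, and its interval of 404 to 921 CPM includes the 514 CPM of Col2a1 spots. Meox1 stood at 50.4 and 83.1 CPM there at E11.5 and E12.5, between its Col2a1 and Scx spots, and at 49.9 CPM from 2 UMIs at E13.5. Uncx stood at 77.9 and 222 CPM at E11.5 and E12.5.

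**Figure D3:**
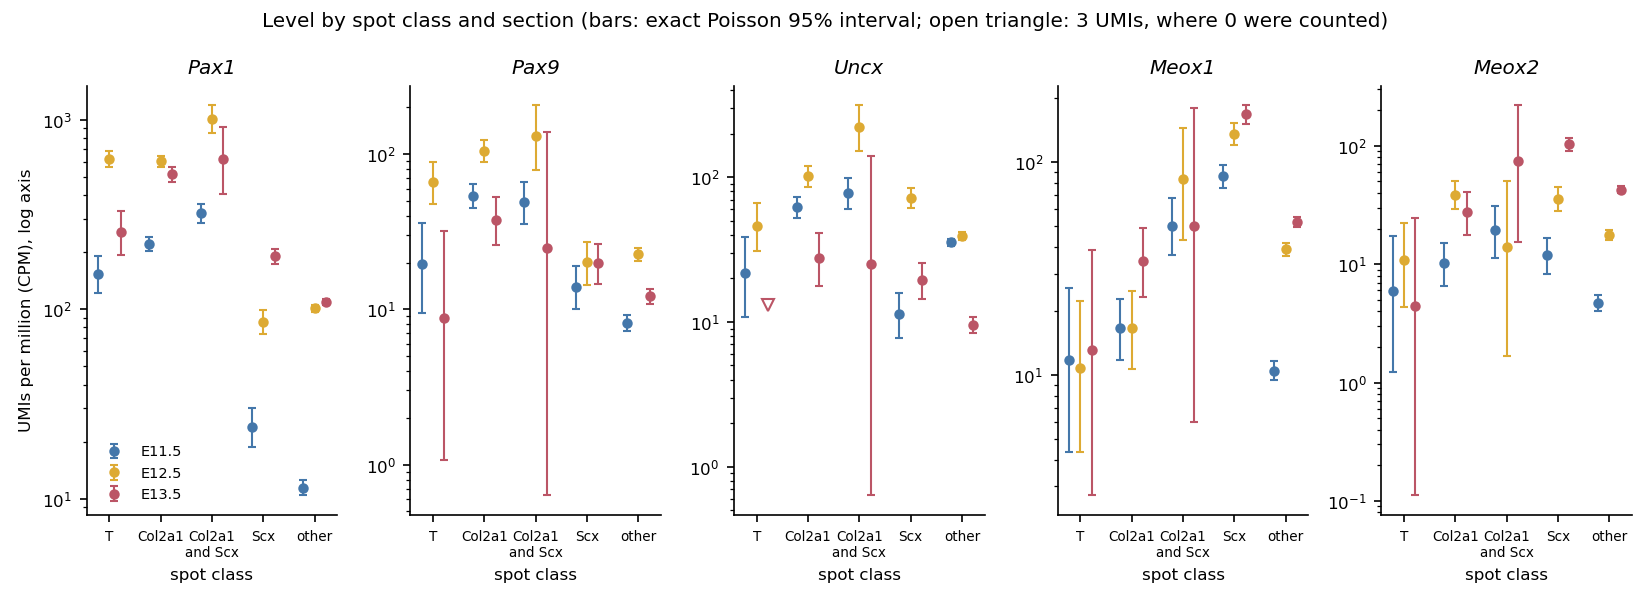
Level of 5 genes in CPM (vertical log axis) in the 5 spot classes (horizontal axis), with points as section values coloured by stage and bars as exact Poisson 95% intervals. Pax1 and Pax9 are highest in classes with high Col2a1, Meox1 is highest in Scx spots in each section, and the open triangle marks Uncx in E13.5 T spots, where 0 UMIs were counted.

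Without class thresholds, the spots of each section were ranked by Col2a1 and divided into 10 equal bins. Pax1 was highest at the Col2a1-rich end of each section. It stood at 1.76 CPM in the lowest bin and 251 CPM in the highest at E11.5, at 8.68 and 687 CPM at E12.5, and at 10.96 and 524 CPM at E13.5. The step was sharpest at E11.5, where the second highest bin had 37.9 CPM, while at E13.5 the second highest bin, at 521 CPM, equalled the highest within counting error. Pax9 had the same order, with 1.76 and 51.0 CPM in the end bins at E11.5 and 1.58 and 103 CPM at E12.5.

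Meox1 was highest in the upper part of the Col2a1 ranking at the later stages, below the top bin. At E12.5 it stood at 73.1 to 76.0 CPM in bins 6 to 9 and at 21.1 CPM in the highest bin. At E13.5 it reached 103 CPM in bin 7 and stood at 35.4 CPM in the highest. In bin 9, where Pax1 was already at 486 and 521 CPM in these sections, Meox1 stood at 76.0 and 69.6 CPM, above the top bin. The Col2a1-poor end was low in Meox1 as well, at 13.4 CPM in the lowest bin at E12.5 and 19.9 CPM at E13.5. At E11.5 Meox1 had 25.5 CPM in the top bin, above its section level of 16.6 CPM. Its highest bin in that section was bin 8, at 30.5 CPM, with an interval that overlapped that of the top bin. Bin 9 had 12.7 CPM. Along the Scx ranking Meox1 was highest in the top bin of each section, at 76.0, 134 and 163 CPM, and so was Meox2, at 13.3, 34.4 and 101 CPM.

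Uncx was high at both ends of the Col2a1 ranking at E11.5 and E12.5. It stood at 59.6 CPM in the lowest bin and 63.8 CPM in the highest at E11.5, with 13.7 CPM in bin 9, and at 67.5 and 102 CPM at E12.5, with 16.6 CPM in bin 5. At E13.5 the lowest bin had 0.288 CPM and bin 9 had 39.7 CPM, so the level at the Col2a1-poor end was near 0 in that section. In neuron spots, the top 5% of a section by neuron markers, Uncx stood at 126 CPM (112 to 140), 53.2 CPM (43.1 to 64.9) and 4.80 CPM (2.07 to 9.46). At E11.5 that was above the Col2a1 spots, and 62.0% of 79 neuron spots had an Uncx UMI.

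**Figure D4:**
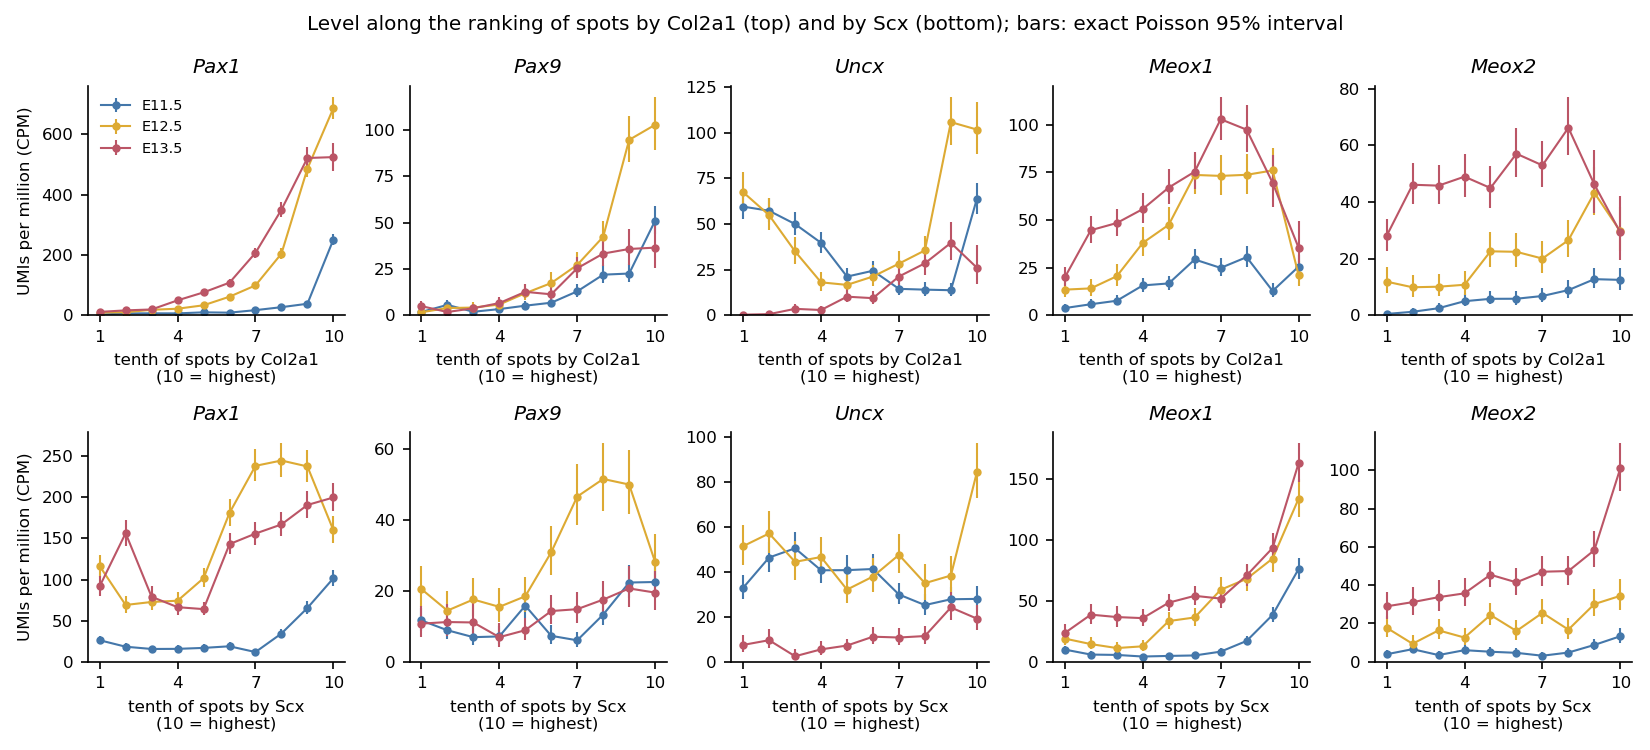
Level of 5 genes in CPM (vertical axis, scaled per panel) in 10 equal bins of spots ranked by Col2a1 (top row) and by Scx (bottom row), with lines coloured by section and bars as exact Poisson 95% intervals. Pax1 is highest at the Col2a1-rich end, Uncx is high at both ends at E11.5 and E12.5, and Meox1 is highest in the top Scx bin at 76.0, 134 and 163 CPM.

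Shares of spots with a UMI depend on depth, so they are given as counted and after thinning each spot to 3000 UMIs, which left out 5, 11 and 61 shallower spots. Pax1 was detected in 72.5%, 95.8% and 72.7% of Col2a1 spots as counted and in 43.1%, 66.7% and 68.9% after thinning. In other spots the shares were 17.2%, 48.7% and 55.3%, and 2.33%, 14.6% and 21.3% after thinning. Meox1 was detected in 61.9%, 87.2% and 86.2% of Scx spots, and in 13.3%, 28.7% and 31.9% after thinning, against 2.88%, 10.0% and 13.3% of thinned other spots. Pax1 in Col2a1 spots and Meox1 in Scx spots thus stood above other spots in each section both ways. Other contrasts turned: Meox1 at E11.5 was detected in 24.5% of Col2a1 spots and 14.4% of other spots as counted, but in 1.96% and 2.88% after thinning, and Pax1 at E12.5 in 51.1% of Scx spots and 48.7% of other spots, but in 13.8% and 14.6% after thinning. As a background, neuron spots with a median of 34215, 34337 and 24498.5 UMIs held a Pax1 UMI in 16.5%, 29.4% and 63.2% of cases, and a Meox1 UMI in 2.53%, 9.80% and 41.2%. Heart spots, the top 2% by heart markers, with medians of 41881.5, 29315 and 22383.5 UMIs, held a Pax1 UMI in 15.6%, 61.9% and 10.7% and a Meox1 UMI in 18.8%, 76.2% and 25.0%. The E12.5 heart spots held few heart markers, 1823 CPM summed against 22053 and 32949 CPM in the heart spots of E11.5 and E13.5. The Pax1 shares of other spots at E12.5 and E13.5 did not exceed the highest of these. Those highest shares came from spots that held Pax1 themselves, at 40.5 CPM in E12.5 heart spots and 64.2 CPM in E13.5 neuron spots. They are no Pax1-free background, so the shares do not decide whether other spots expressed Pax1. In CPM, other spots stood at 101 at E12.5 and 109 at E13.5. For Pax9 at E13.5 the thinned shares, 6.67% in Col2a1 and 8.62% in Scx spots, went against the CPM and no order is read from them.

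At least 1 of the 5 well detected members was found in 64.1%, 84.8% and 84.7% of spots, and all 5 in 0.384%, 3.55% and 3.46%. Co-detection was measured as the number of spots with both genes over the number expected from their shares within 10 bins of spots ranked by depth, so 1 means that the 2 genes fell together as often as depth alone gives. Spots of a section are not replicates, so no test was made, and the spread is over the 3 sections.

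Pax1 and Pax9 were together in 121, 272 and 236 spots, 1.69, 1.55 and 1.47 times the expected number (mean 1.57 ± 0.114, SD over 3 sections). Of the spots with Pax9, 44.3%, 86.6% and 85.2% also held Pax1. This was the highest mean among the 10 pairs, and it was 2.31 after thinning and 2.41 when 2 UMIs were required. Pax9 and Uncx followed at 1.5 ± 0.396, and Pax1 and Uncx at 1.39 ± 0.215, with the section values of these pairs ranging from 1.15 to 1.95. After thinning, Pax1 and Uncx stood at 1.94, but Pax9 and Uncx at 0.936, where 0 spots held both at E13.5 and 1.6 were expected. The spreads of the 3 pairs overlapped, so their order is not firm.

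Meox1 and Meox2 were together at 1.51, 1.18 and 1.11 times the expected number (mean 1.26 ± 0.214), close to Pax1 with Meox1 at 1.23 ± 0.0981. After thinning the pair of Meox genes stood at 0.874, with 0 spots at E11.5 where 1.47 were expected, and Pax1 with Meox1 at 1.30. Meox1 and Uncx stood apart from the other pairs at E11.5, where they were together in 68 spots and 84.5 were expected, a ratio of 0.805. Their ratio was 0.951 at E12.5 and 1.27 at E13.5, so its direction differed between sections. Uncx and Tbx18, which marks the rostral part of the somite, fell together less than expected in each section, at 0.833, 0.819 and 0.632. Pax1 and Pax3, a dermomyotome and neural tube factor, did so too, at 0.638, 0.571 and 0.792, whereas Pax1 and Sox9, the main factor of early cartilage, stood at 1.23, 1.14 and 1.14.

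**Figure D5:**
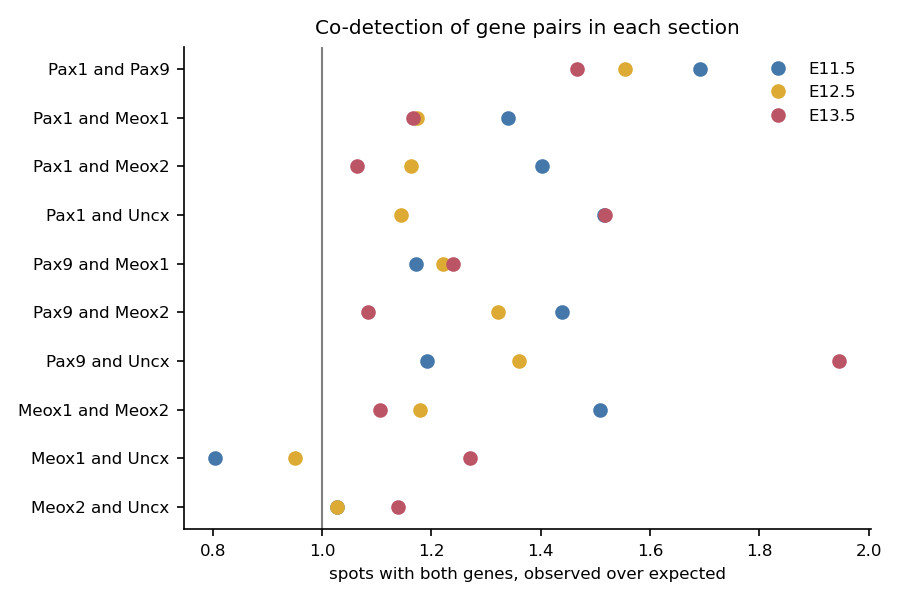
Spots with both genes of a pair, observed over expected at the same depth (horizontal axis), for 10 gene pairs (vertical axis), with 1 point per section coloured by stage and a grey line at 1. Pax1 and Pax9 lie between 1.47 and 1.69, and Meox1 and Uncx lie on both sides of 1.

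The genes most like each member were ranked by Pearson's r of log2(UMIs per 10000 + 1) across the spots of a section, averaged over the 3 sections, among 10618 genes with at least 100 UMIs in each. The spots share library, depth and tissue, so these values describe the sections. Pax1 was most like Col2a1 (mean r 0.632), its overlapping lncRNA AI646519 (0.632), the ubiquitin ligase gene Wwp2 (0.587) and the cartilage collagens Col9a2 (0.577) and Col9a3 (0.556). Pax9 was most like Pax1 (0.447), then Col2a1 (0.391), AI646519 (0.361), Col9a2 (0.336) and Col9a3 (0.326). Meox1 was most like Scx (0.417), then Shisa2 (0.338), the fibronectin gene Fn1 (0.331), Mest (0.329) and Pamr1 (0.321). For Meox2 the values were low, with Mest (0.276), Fibin (0.214), the fibrillin gene Fbn2 (0.209), Scx (0.198) and the collagen gene Col3a1 (0.195). Uncx was most like Hoxb8 (0.336), Rgmb (0.319), Hoxb9 (0.313), the neuronal gene Map2 (0.284) and Hoxb2 (0.280). Its r with Map2 was 0.566, 0.298 and -0.011.

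Other genes of the pathway were read from lists chosen for their roles. Of 12 tested partners of the sclerotome, 5 were higher in Col2a1 spots and 0 lower, all 5 forkhead factors: Foxf2 (log2 fold change 2.27), Foxc2 (1.69), Foxf1 (1.64), Foxc1 (1.34) and Foxd1 (0.91). The median of the list was 0.47, against -0.0029 over all genes tested. In T spots Foxf2 (2.73) and Foxf1 (2.71) were higher and Ebf3 (-1.76) lower, and in Scx spots 0 of 12 passed. Foxf2 stood at 145, 97.6 and 28.7 CPM in Col2a1 spots and at 22.0, 15.1 and 11.6 CPM in other spots. Foxf1 stood at 82.7, 175 and 4.39 CPM in T spots and at 58.8, 67.1 and 11.48 CPM in Col2a1 spots. In other spots Foxf1 stood at 12.9, 8.98 and 16.2 CPM, so both classes were below other spots at E13.5. Its E13.5 value in T spots was the level that a single UMI gives there. Sox9, Sox5 and Sox6, which switch on cartilage genes, were all higher in Col2a1 spots (log2 fold changes 2.52, 2.25 and 1.75) and in T spots (2.14, 2.18 and 1.64), and 0 of 3 passed in Scx spots.

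Of 8 genes that read the hedgehog signal, Gli1 (1.63), Hhip (1.39) and Ptch1 (1.32), which are induced by it, were higher in Col2a1 spots on the log2 scale, and Gas1 (-1.01), a co-receptor, was lower. In T spots Hhip (2.66), Ptch1 (1.82) and Gli1 (1.47) were higher, and Gas1 (-1.49) and Gli3 (-1.08) lower. In Scx spots Gli3 (0.55) alone passed, higher. Ptch1 stood at 152, 274 and 92.3 CPM in T spots and at 38.3, 53.2 and 50.2 CPM in other spots, classes that did not overlap.

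Of 6 tested dermomyotome genes, 4 were lower in Col2a1 spots and 0 higher: Lbx1 (-3.75), Dmrt2 (-3.05), Pax7 (-3.01) and Myod1 (-2.43). In T spots Pax7 (-8.73, with 0 UMIs in each section's T spots, so the size is no bound) and Myod1 (-4.25) were lower, and in Scx spots Myod1 (1.23), the muscle determination factor, was higher. Of the segmentation genes 3 of 9 could be tested, and Dll1 (-3.28), Dll3 (-2.05) and Lfng (-1.56) were lower in Col2a1 spots, 0 passed in T spots, and Dll3 (-2.20) was lower in Scx spots. Msgn1 was at 0 CPM in each class of each section, and Ripply1 in all but the other spots of E13.5. In Col2a1 spots 5 of 5 neuron and 4 of 4 tested neural progenitor markers were lower as well. Their part in the segmentation results was not tested. Of 4 genes of somite polarity and epithelium, Epha4 (-0.82) was lower in Col2a1 spots and 0 passed in T or Scx spots. Between Col2a1 and Scx spots, Epha4 (-1.48) and Tcf15 (-1.30), a factor of epithelial somites, were lower in Col2a1 spots, as Meox1 was.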

How the data were processed

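The deposited files hold raw UMI counts per gene and spot for 3 sections, which the authors made, per the file headers, with Space Ranger 1.2.0. The submitters' processing notes name STAR and mm10, and the annotation release is not given in the sources used here. Stages were taken from titles, and spot positions were not used here. The 6 members and all lists were chosen with earlier results of these data known. Named genes were the members, the 3 placing genes, the 5 genes most like each member and, per list, up to 4 genes with the largest fold past the test, with a further sclerotome partner (Foxd1), marker genes that passed and co-detection partners (Tbx18, Pax3, Sox9) named after their values were seen.

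The 15 sums of counts (5 classes in 3 sections) were fitted with edgeR 4.0.16 (filterByExpr, TMM, glmQLFit, glmQLFTest) in R 4.3.3, with Benjamini-Hochberg adjustment and a threshold of 0.05. The block was the section, since its 5 classes were cut from 1 piece of tissue, which pairs them. The scatter is over 3 stages. Intervals are exact Poisson, binomial or conditional binomial at 95%. Alternatives were DESeq2 1.42.0, no filter, no replicate block, other class limits, deeper spots, thinning and leaving out each section. Python 3.11.15 made the other tables. The fit was also run on counts simulated at a fixed spread, with changes set in Col2a1 spots alone. Class differences that vary by stage were not simulated, and no result here rests on that run. Doublet calling does not apply to spots.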

Additional observations from a re-analysis of the deposited data

Results flagged for a closer look

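For 4 genes the ratio between classes pointed one way in some sections and the other way in others, with each 95% counting interval clear of 1. The differences between sections were not tested, since each stage has 1 section. Meox1 in Col2a1 spots over other spots stood at 1.58 (1.11 to 2.20) at E11.5, 0.426 (0.272 to 0.639) at E12.5 and 0.659 (0.443 to 0.945) at E13.5. Meox2 in the same comparison stood at 2.17 (1.35 to 3.33), 2.19 (1.63 to 2.91) and 0.645 (0.412 to 0.966). Both Meox genes were thus below other spots in the Col2a1 spots of E13.5, which were the shallowest of that class. Pax1 in Scx spots over other spots stood at 2.09 (1.60 to 2.70) at E11.5, 0.851 (0.727 to 0.992) at E12.5 and 1.74 (1.58 to 1.92) at E13.5. Uncx in Scx spots over other spots stood at 0.317 (0.217 to 0.448) at E11.5, 1.83 (1.53 to 2.18) at E12.5 and 2.04 (1.46 to 2.79) at E13.5.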

How the results depend on the processing

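In edgeR, 3 members were called in Col2a1 spots against other spots, 1 in T spots, 2 in Scx spots and 3 between Col2a1 and Scx spots. Without the replicate block the count was 0 in all 4. In T spots it was 3 with no filter, 2 in spots with at least 5000 UMIs and 2 with T spots set at 2 T UMIs, and in Scx spots it was 1 with the DESeq2 test. Leaving out 1 section gave 2 to 4, 1 to 2, 1 to 2 and 3 members. Directions reversed for Meox2 in Col2a1 spots with the top 5% of spots (-0.149), and for Uncx, none of them called. Leaving out 1 section moved Uncx from -0.737 to 0.0119 in T spots (above 0 without E11.5) and from -0.305 to 0.925 in Scx spots (below 0 without E12.5, and -0.179 without E13.5). The E13.5 to E11.5 ratio was 3.84 for Pax1 and 3.38 for Meox1 with DESeq2 size factors. The cause was not tested.

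Co-detection ratios after thinning were 2.31 (Pax1 and Pax9), 1.55 (Pax1 and Meox2), 1.94 (Pax1 and Uncx), 1.13 (Pax9 and Meox1), 1.60 (Meox1 and Uncx), and below 1 for Pax9 and Meox2 (0.936), Pax9 and Uncx (0.936), Meox1 and Meox2 (0.874) and Meox2 and Uncx (0.702), from few spots. From 2 UMIs they were 2.41 (Pax1 and Pax9), 1.55 (Pax1 and Meox1), 1.68 (Pax1 and Meox2), 1.79 (Pax1 and Uncx), 1.61 (Pax9 and Meox2), 1.77 (Meox1 and Meox2) and 1.24 (Meox2 and Uncx).

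Genes called against other spots in Col2a1 spots numbered 1624, and 2448 with no filter, 5 with no replicate block and 341 without E12.5. In T spots they numbered 392, and 1107, 5 and 123, and 257 with the top 5% of spots. In Scx spots they numbered 439, and 1193, 0 (471 at an unadjusted p under 0.05, and 311 with DESeq2 and the block) and 180, with 101 without E11.5 and 866 without E13.5. Between Col2a1 and Scx spots they numbered 558, and 1085, 3 and 165, with 336 without E13.5.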
